A study of Mus musculus with 18 samples.

Results

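Some genes answered FGF6 in one direction at 4 h and in the other at 24 h. They were sought in immortalized murine brown preadipocytes, undifferentiated precursors of brown fat that had been derived from the stromal vascular fraction of brown adipose tissue and immortalized with SV40 T antigen. Cells of all 6 groups carried that antigen, and were given either vehicle (Veh) or FGF6 at 200 ng/ml for 4 h, 8 h, or 24 h, with RNA-seq of 3 libraries a group. For each gene, counts were scaled to a common library total (CPM), and the difference at a time point was log2(mean FGF6 CPM + 0.5) minus log2(mean Veh CPM + 0.5). Genes were chosen by these measured differences: a gene was taken if those at 4 h and 24 h were opposite in sign and both at least 0.5 in size and if its mean CPM reached 1 in at least 1 of the 6 groups. The choice gave 89 of the 13038 genes that reached 1 CPM, or 0.683%, out of 48023 genes in the table. Of these, 53 were higher with FGF6 at 4 h and lower at 24 h, and 36 were lower at 4 h and higher at 24 h.

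FGF6 is a secreted, heparan sulfate-binding growth factor that signals through FGF receptor tyrosine kinases, and one of the main pathways below those receptors is the MAP kinase cascade. The first wave of transcription after a growth factor includes transcription factors, secreted ligands, and feedback inhibitors, and proliferating cells later pass into DNA replication and mitosis. Preadipocytes are also a source of chemokines, extracellular matrix, and paracrine growth factors in fat.

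Library totals lay between 24327816 and 33471980 counts, and the smallest of them made 3 counts equal to 0.123 CPM. Nothing in the labels says that the 3 libraries of a group came from separate cultures, so that p-values measure the spread between these libraries, which may be technical. The label of the cells was checked against marker genes. Of 10 preadipocyte markers, 8 reached 1 CPM and together held 4857 to 8052 CPM in every library, with Dlk1 and Dpp4 under 1 CPM. Macrophage markers summed to 14.7 to 46.2 CPM with Ptprc, Adgre1, and Lyz2 under 1 CPM, endothelial markers to 0.394 to 5.64 CPM with Pecam1 under 1 CPM, and the 6 epithelial markers were each under 1 CPM. The endothelial sum was higher with FGF6 at every time point and the macrophage sum was also higher, from 14.7 to 15.9 CPM with vehicle to 43.6 to 46.2 CPM with FGF6 at 24 h; their part in the results was not tested. The preadipocyte sum was lower with FGF6 at every time point without overlap, at 24 h with 5827 to 6150 CPM against 7481 to 8052 CPM with vehicle. Sums of mature adipocyte and muscle markers were lower too, at 24 h with 62.6 to 69 against 156 to 173 CPM and with 1.2 to 1.52 against 5.28 to 7.38 CPM, with Adipoq, Lep, Cfd, Pax7, Myf5, and Ckm under 1 CPM; the part of these was likewise not tested. In bulk RNA, fewer cells of a type and less RNA per cell cannot be told apart.

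Interferon-stimulated genes set single libraries of 4 h and 8 h apart. The summed CPM of 46 such genes was 6228, 8833, and 9417 in Veh replicates 1, 2, and 3 at 4 h. With FGF6 at 4 h, the sums were 7140, 7738, and 5808. Replicate 1 of Veh and replicate 3 of FGF6 were the lowest of their groups. The groups overlapped through Veh replicate 1, which lay inside the FGF6 range, while Veh replicates 2 and 3 lay above every FGF6 library. At 8 h, Veh replicate 1 was again the lowest of its group, with 7218 against 9011 and 9839 CPM. At 24 h, the sums were 9334 to 10373 CPM with vehicle and 890 to 1059 CPM with FGF6. The reversing genes Mndal, Ifi203, Ifi203-ps, Ifi207, Ifi205, Cxcl10, Cd274, Slfn2, and Batf2 are therefore given below with and without these 4 h libraries. So is Hap1, whose arms overlapped at 4 h.

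Because the values at 4 h and 24 h chose the genes, they are described here without a test, and only the comparison at 8 h, which the choice did not use, was tested. The median difference of the 53 higher-then-lower genes was 0.89 at 4 h, 0.27 at 8 h, and -1.20 at 24 h. For the 36 lower-then-higher genes, the medians were -0.64, -0.36, and 0.67. Slc7a2, which encodes a cationic amino acid transporter, had the largest positive difference at 4 h (1.90), and Cxcl10, a chemokine, the lowest value at 24 h (-3.07). Hoxa7, a homeobox transcription factor, had the lowest value at 4 h (-1.23), and Atp8b4, a P4-type ATPase gene, the highest at 24 h (1.63). Reversal of this size was uncommon: 2681 genes had both differences at least 0.5 in size, and 3.32% of these were of opposite sign, against 857 genes higher at both times and 1735 lower at both.

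**Figure D1:**
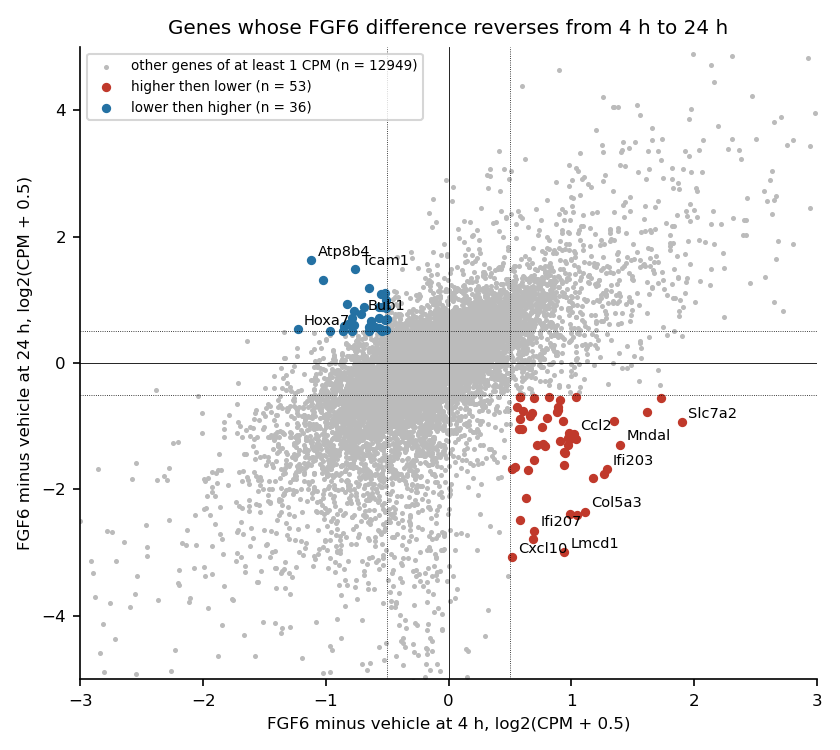
Each point is a gene of at least 1 CPM, with its FGF6 minus vehicle difference on the log2(CPM + 0.5) scale at 4 h (horizontal) and 24 h (vertical), each from the means of 3 libraries a group. Dotted lines mark differences of 0.5, and the 53 higher-then-lower genes (red) and 36 lower-then-higher genes (blue) lie in the 2 outer corners of opposite sign; other genes beyond the axes are not drawn.

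The threshold cut through a continuous range. The members nearest to it were Rnf128 with a smaller difference of 0.502, Cep126 with 0.505, and Gli1 with 0.506. Just outside were Agbl5 with 0.499, Irf2 with 0.498, and Csf1 with 0.497. Among the members, 38 had a smaller difference under 0.6 and 10 had both differences at least 1, while 98 genes of opposite sign lay between 0.4 and 0.5. The scaling of the libraries also bore on the choice. TMM normalization in place of library totals raised the difference of the median gene by 0.100 at 4 h, 0.063 at 8 h, and 0.007 at 24 h, and the rule then gave 91 genes, of which 68 were higher then lower and 23 lower then higher. All 53 higher-then-lower genes and 22 of the 36 lower-then-higher genes stayed in under TMM, and all 89 kept both signs. The 14 that no longer met it were Ttk, Kif18a, Spag5, Gli1, Lims2, Kcnk10, Kcnab3, Ccdc66, Ccdc92, Slc6a15, Arxes2, Rnf128, Cep126, and 2610318N02Rik. Leaving out each of the 12 libraries of 4 h and 24 h in turn kept both signs of all 89, and 60 met the rule in every case, 41 of them higher then lower and 19 lower then higher. The higher-then-lower genes that missed it in at least 1 case were Cxcl10, Cd274, Ifi207, Ifi205, Il1rn, Pax5, Batf2, Sphk1, Mcoln2, Ubtd2, Cnksr1, and Cdk18. The lower-then-higher genes were Ect2, Fgf10, Gli1, Lims2, Lmo7, Kcnk10, Kcnab3, Gm11476, Grik2, Chd3, Slc6a15, Arxes2, Ccdc66, Ccdc92, Rnf128, Cep126, and 2610318N02Rik.

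The rule was also applied to 2 of the replicate numbers and the result read in the third. With replicate 1 held out, 89 genes were chosen and 97.8% had the same signs in the held-out libraries. With replicate 2 held out, 88 genes were chosen and 96.6% had the same signs. With replicate 3 held out, 111 were chosen and 86.5% had the same signs. Among all genes of at least 1 CPM, 27.4% to 28.7% had opposite signs at 4 h and 24 h in 1 held-out replicate. The same signs with both held-out differences at least 0.5 were found for 59.6%, 72.7%, and 46.8% of the chosen genes, against 0.911% to 1.09% of all genes. Replicate 3 gave other signs for 15 of its chosen genes, including Cxcl10, Cxcl11, Ifit3, Oas3, Zbp1, Cd274, and Ifi205, all known to respond to interferon.

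Libraries of FGF6 and vehicle did not overlap at 24 h in any of the 89 genes and at 4 h in 85. Over all genes of at least 1 CPM, 61.6% did not overlap at both times and 10.5% did so in opposite directions. Since the choice used these values, the count of 85 describes the members and is not evidence of their reversal. The 4 with overlap at 4 h were Hap1, Ifi205, Cd274, and Cxcl10.

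At 8 h, the libraries of the arms did not overlap in 55 of the 89 genes (28 higher and 27 lower), against 79.7% of all genes of at least 1 CPM. Of the 89, 59 differed between FGF6 and vehicle at an FDR under 0.05 (edgeR quasi-likelihood test), or 66.3%, against 70.8% of the 15071 genes tested. The share of members called was thus near that of all genes. The direction of the calls leaned to the 4 h side, which the rule had set. Most genes kept their 4 h sign at 8 h, so this lean follows in part from the rule and is a description. Here and below, a gene that rose or fell at 8 h was called higher or lower with FGF6 than with vehicle at that time. Likewise, an increase or decrease at 8 h is relative to vehicle, and none of these words means a change over time. Of the 53 higher-then-lower genes, 29 rose at 8 h (54.7%, against 32.4% of all genes), 8 fell (15.1%, against 38.4%), and 16 were not called. Of the 36 lower-then-higher genes, 21 fell (58.3%), 1 rose (2.78%), and 14 were not called. The median log2 fold change at 8 h was 0.34 for the higher-then-lower genes, -0.32 for the lower-then-higher genes, and -0.05 for all genes tested. The sign of 4 h was held at 8 h by 66 of the 89 genes, 36 of one kind and 30 of the other, and by 85.1% of all genes of at least 1 CPM.

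The 8 h difference lay between those of 4 h and 24 h in 80 of the 89 genes. The rule sets the 4 h and 24 h differences far apart and so favors such a place for 8 h, and the count is given as a description. In the remaining 9, it was further from 0 than at 4 h and on the same side. They were Adcyap1r1, Kcnc2, Rhoj, Col15a1, and Il1rn among the higher-then-lower genes and Stard10, Gm11476, Pdk1, and Ccdc66 among the others. No gene was further out at 8 h than at 24 h on the side of 24 h. In 46 of the 89, the 8 h difference was at most 0.5 times the size of that at 4 h.

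**Figure D2:**
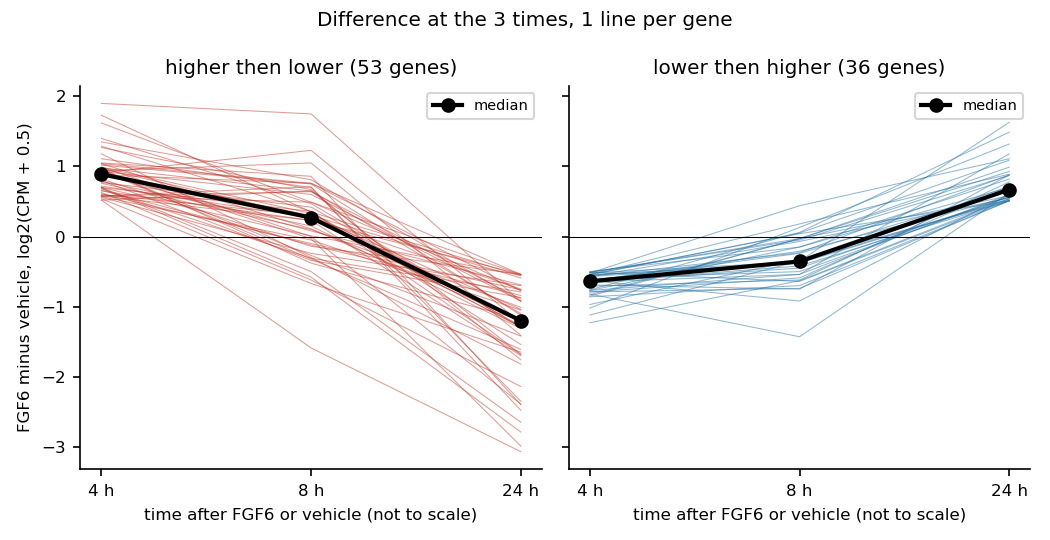
FGF6 minus vehicle difference on the log2(CPM + 0.5) scale at 4 h, 8 h, and 24 h, with 1 line per gene and the median in black, for the 53 higher-then-lower genes (left) and the 36 lower-then-higher genes (right). The medians pass from 0.89 through 0.27 to -1.20 and from -0.64 through -0.36 to 0.67, and the time axis is not to scale.

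The p200 family, which held the leading genes of the higher-then-lower group, encodes interferon-inducible proteins with a DNA-binding HIN domain, several of which sense DNA. The family lies as a cluster on mouse chromosome 1. It was listed after the values were seen. Of 8 family genes that reached 1 CPM, 5 were members (Mndal, Ifi203, Ifi203-ps, Ifi207, and Ifi205), and the other 3 were also higher at 4 h and lower at 24 h, by less than the rule asks. This describes the family and is not independent of the rule. The 5 lie between chr1:173723427-173741747 (Ifi207, minus strand, GRCm38) and chr1:174011998-174031810 (Ifi205, minus strand), with gaps of at most 69325 bases between adjacent members. Their counts are uncertain, because between 7.29% and 26.33% of the 50-base windows of their transcripts occur in another gene, and exons of Mndal share 155 bases on the same strand with its neighbours Ifi203 and Gm38050. The GENCODE record of Mndal (chr1:173849126-173942491) overlaps that of Ifi203 (chr1:173920407-173942672) and extends well beyond the RefSeq start of Mndal shown next, so that the split of reads between both genes is not known.

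The promoters of 4 of them are shown because the genes were higher and then lower together and because the sequences resemble each other. Each stretch runs from 180 bases before the RefSeq start site to 20 bases from it onward (GRCm38.p6, all on the minus strand, written 5′ to 3′), and capitals mark matches to GAAA, any 2 bases, and GAAA, the core of the interferon-stimulated response element, searched on both strands.
Mndal, chr1:173880168-173880367: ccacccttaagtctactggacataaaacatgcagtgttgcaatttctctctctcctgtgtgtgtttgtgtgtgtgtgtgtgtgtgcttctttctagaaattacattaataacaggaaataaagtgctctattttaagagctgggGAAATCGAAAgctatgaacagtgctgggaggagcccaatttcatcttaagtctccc
Ifi203, chr1:173942473-173942672: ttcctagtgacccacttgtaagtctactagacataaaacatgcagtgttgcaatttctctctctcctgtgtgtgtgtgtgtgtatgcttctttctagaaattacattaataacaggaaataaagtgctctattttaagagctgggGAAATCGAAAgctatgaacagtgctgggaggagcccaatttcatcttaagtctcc
Ifi207, chr1:173741790-173741989: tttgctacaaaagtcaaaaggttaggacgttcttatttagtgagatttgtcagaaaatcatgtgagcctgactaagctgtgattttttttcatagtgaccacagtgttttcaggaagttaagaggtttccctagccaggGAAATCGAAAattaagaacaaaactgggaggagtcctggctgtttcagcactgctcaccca
Ifi205, chr1:174031736-174031935: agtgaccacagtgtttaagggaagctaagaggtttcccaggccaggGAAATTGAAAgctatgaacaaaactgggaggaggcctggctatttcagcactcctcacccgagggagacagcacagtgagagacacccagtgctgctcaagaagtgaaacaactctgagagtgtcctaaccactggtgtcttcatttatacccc
The 300-base windows of Mndal and Ifi203, 250 bases before the start and 50 from it onward, aligned over 299 columns of which 94.3% were identical. Those of Ifi203 and Ifi207 aligned locally over 142 columns with 64.8% identity, and those of Ifi203 and Ifi205 over 91 columns with 75.8%. A match began 36 bases before the start in Mndal, 35 in Ifi203, 41 in Ifi207, and 134 in Ifi205. All 4 windows held this sequence, as did 3.99% of the 27025 genes with a window. Of the 41 higher-then-lower genes with a window, 17.1% held it (7 genes, of which 4 were these p200 genes). Without the family the share was 8.11% of 37 genes, and it was 3.33% of the 30 lower-then-higher genes with a window. A match is a description of the letters and not of a bound site.

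At 4 h, Ifi203 was at 55.8, 95.2, and 106 CPM with vehicle and at 210, 238, and 183 CPM with FGF6. At 8 h, the vehicle libraries were at 58.5, 79.6, and 92.6 CPM and the FGF6 libraries at 105, 87.8, and 105 CPM. At 24 h, vehicle gave 81.7, 90.5, and 92.4 CPM and FGF6 gave 27.7, 26.2, and 27.9 CPM. The arms were thus apart at 4 h and 24 h and overlapped at 8 h, where FGF6 replicate 2 fell within the vehicle range. The differences were 1.29 at 4 h and -1.68 at 24 h, and at 8 h Ifi203 rose (log2 fold change 0.43 ± 0.16, SE, adjusted p = 0.0171). That call was lost without Veh replicate 1 of 8 h (0.26, adjusted p = 0.135) or FGF6 replicate 1 (0.38, adjusted p = 0.0595). Without Veh replicate 1 at 4 h, the 4 h difference was 1.06, and without FGF6 replicate 3 it was 1.38.

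Mndal was likewise higher with FGF6 at 4 h and lower at 24 h. Its CPM at 4 h were 8.74, 14, and 16 with vehicle and 33.6, 39.4, and 31.9 with FGF6. At 8 h they were 8.65, 12.5, and 13.9 with vehicle and 18.7, 13.6, and 17 with FGF6. By 24 h, they were 12.6, 11.2, and 13.1 with vehicle and 3.92, 4.82, and 5.45 with FGF6. The FGF6 libraries were all above the vehicle libraries at 4 h and all below at 24 h, while the lowest FGF6 library at 8 h was just below the highest vehicle library. Mndal rose at 8 h (log2 fold change 0.56 ± 0.17, SE, adjusted p = 0.00483). Its 4 h difference of 1.40 was 1.19 without Veh replicate 1 and 1.46 without FGF6 replicate 3.

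Ifi207 had already turned by 8 h. At 4 h, Ifi207 was at 29.5, 49.5, and 52.8 CPM with vehicle and 71.9, 82.4, and 60.6 CPM with FGF6. At 8 h, it was at 34.2, 45, and 55.3 CPM with vehicle and 39.7, 22.6, and 32.3 CPM with FGF6. At 24 h, vehicle libraries held 31.1, 31.7, and 33.1 CPM and FGF6 libraries 4.89, 3.97, and 5.16 CPM. The arms overlapped at 8 h through Veh replicate 1 and FGF6 replicate 1, and Ifi207 fell there (log2 fold change -0.44 ± 0.18, SE, adjusted p = 0.0358). The call was lost without any of FGF6 replicates 2 and 3 and Veh replicates 2 and 3 of 8 h, with log2 fold changes of -0.24 to -0.43 and adjusted p from 0.0727 to 0.258. The 4 h difference of Ifi207, 0.70, was 0.48 without Veh replicate 1 and so no longer met the rule, and 0.80 without FGF6 replicate 3. For Ifi205, it was 0.63, 0.35 without Veh replicate 1, and 0.74 without FGF6 replicate 3, and the rule was also missed without FGF6 replicate 2. Ifi205 was not called at 8 h (log2 fold change -0.65 ± 0.29, SE, adjusted p = 0.0511) and passed without Veh replicate 1 (-0.91, adjusted p = 0.00631) or FGF6 replicate 1 (-0.91, adjusted p = 0.0224) of that time or with the replicate block (-0.62, adjusted p = 0.0493). The pseudogene Ifi203-ps, with differences of 1.04 and -1.20, was at 3.56 ± 0.327 CPM (SD, n = 3) with FGF6 at 4 h, its highest group, and its 4 h difference was 0.86 without Veh replicate 1 and 1.10 without FGF6 replicate 3.

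None of the 46 interferon-stimulated genes of at least 1 CPM on the list used for this response met the rule, and that list did not hold the p200 genes, Cxcl10, or Cd274. On that list, 40 genes were lower with FGF6 at 4 h and all 46 at 24 h, against 8368 and 6619 of the 13038 genes of at least 1 CPM. The median differences were -0.25, -1.37, and -4.23 at the 3 times, against -0.14, -0.10, and -0.01 for those 13038 genes. By some amount, 6 of the list were higher then lower (13%, against 6.61% of all genes). Under TMM, this last count was 11 (23.9%, against 9.68%). At 8 h, 45 of 47 tested fell (95.7%, against 38.4% of all genes tested) and none rose (against 32.4%) at an FDR under 0.05 in edgeR.

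Cxcl10, a chemokine induced by interferon that attracts T cells, was the reversing gene with the lowest difference at 24 h. At 4 h, Cxcl10 was at 113, 226, and 231 CPM with vehicle and at 281, 334, and 201 CPM with FGF6. After 8 h, it was at 166, 267, and 307 CPM with vehicle and at 89.2, 64.3, and 92.4 CPM with FGF6. At 24 h, the values were 242, 286, and 308 CPM with vehicle and 37, 30, and 31.4 CPM with FGF6. FGF6 replicate 3 lay inside the vehicle range at 4 h, whereas the arms were fully apart later. The 4 h difference of 0.52 was 0.25 without Veh replicate 1 and 0.69 without FGF6 replicate 3. It also missed the rule without either of the other 2 FGF6 libraries, so the early difference of Cxcl10 rests on single libraries. At 8 h, Cxcl10 fell (log2 fold change -1.53 ± 0.22, SE, adjusted p = 1.11e-06).

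Cd274, which encodes the T cell inhibitory ligand PD-L1, and Slfn2, a Schlafen family gene of lymphocyte quiescence, were likewise higher with FGF6 at 4 h and lower at 8 h and 24 h. Cd274 had a 4 h difference of 0.54, which was 0.29 without Veh replicate 1 and 0.69 without FGF6 replicate 3, and it missed the rule without either of the other FGF6 libraries. Its log2 fold change at 8 h was -0.65 ± 0.20 (SE, adjusted p = 0.00585), and its difference at 24 h was -1.65. Slfn2 had a 4 h difference of 0.69 that was 0.52 without Veh replicate 1 and 0.82 without FGF6 replicate 3. Slfn2 fell at 8 h by 0.56 ± 0.21 on the log2 scale (SE, adjusted p = 0.0214) and was at 0.691 ± 0.233 CPM (SD, n = 3) with FGF6 at 24 h against 7.72 ± 1.51 CPM with vehicle. The call of Slfn2 was lost without FGF6 replicates 2 or 3 or Veh replicates 2 or 3 of 8 h, with log2 fold changes of -0.37 to -0.52 and adjusted p from 0.0638 to 0.152. Hap1 had a 4 h difference of 0.79, which was 0.58 without Veh replicate 1 and 1.01 without FGF6 replicate 3. Batf2, with a mean of 1.26 CPM in its highest group, had a 4 h difference of 0.68. That was 0.46 without Veh replicate 1, where Batf2 missed the rule, and 0.76 without FGF6 replicate 3.

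Chemokines and the IL-1 system gave 6 members, all higher then lower, out of 34 genes of at least 1 CPM on a list of chemokines and cytokines. Besides Cxcl10, they were the chemokines Ccl2 and Ccl7, the receptors Il1r1 and Il1rl2, and the receptor antagonist Il1rn. Over the whole list, 8 genes, these 6 included, were higher at 4 h and lower at 24 h by some amount (23.5%, against 6.61% of all genes of at least 1 CPM). At 8 h, 19 of 38 tested rose (50%, against 32.4% of all genes tested), 14 fell (36.8%, close to the 38.4% of all genes), and 5 were not called. The 3 IL-1 members do not stand for the IL-1 family and its receptors. Of 10 such genes of at least 1 CPM, 5 were higher with FGF6 at 24 h and 5 lower. Their median differences were 0.95, 0.49, and 0.23 at 4 h, 8 h, and 24 h.

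Ccl2 encodes a chemokine that attracts monocytes. In vehicle-treated cells, it was at 965, 1045, and 1080 CPM at 4 h, against 2033, 2149, and 2093 CPM with FGF6. With 8 h of treatment, it was at 881, 957, and 1002 CPM with vehicle and 1584, 1573, and 1622 CPM with FGF6. At 24 h, it was at 1200, 1148, and 1150 CPM with vehicle and 562, 528, and 514 CPM with FGF6. The arms did not overlap at any time, and vehicle stayed within 881 to 1200 CPM throughout. Ccl2 rose at 8 h (log2 fold change 0.82 ± 0.04, SE, adjusted p = 8.97e-15). Its mean with FGF6 was 2.03 times that with vehicle at 4 h, and at 24 h that with vehicle was 2.18 times that with FGF6.

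Ccl7, a related chemokine gene, lies 8258 bases from Ccl2 on chromosome 11. Its libraries at 4 h were at 417, 451, and 462 CPM with vehicle and 703, 772, and 715 CPM with FGF6. At 24 h, they were at 509, 491, and 494 CPM with vehicle and 209, 204, and 198 CPM with FGF6. At 8 h, Ccl7 rose (log2 fold change 0.33 ± 0.05, SE, adjusted p = 3.64e-07), with 400 to 447 CPM for vehicle and 494 to 525 CPM for FGF6.

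Il1r1, the signaling receptor for IL-1, and Il1rl2, the receptor for IL-36, lie 7352 bases apart on chromosome 1. At 4 h, Il1r1 was at 251, 246, and 243 CPM with vehicle and 449, 461, and 483 CPM with FGF6. At 8 h, it was at 253, 255, and 257 CPM with vehicle and 306, 309, and 323 CPM with FGF6. After 24 h, it was at 220, 225, and 221 CPM with vehicle and 148, 152, and 142 CPM with FGF6. Vehicle levels spanned 220 to 257 CPM over the 3 times, and the FGF6 libraries crossed from above that range to below it. Il1r1 rose at 8 h (log2 fold change 0.36 ± 0.03, SE, adjusted p = 4.33e-10), as did Il1rl2 (0.40 ± 0.07, SE, adjusted p = 1.09e-05), whose differences at 4 h and 24 h were 0.99 and -1.20.

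Il1rn encodes a secreted protein that blocks the IL-1 receptor. It was at 21.8, 21.2, and 26 CPM with vehicle and 33.7, 34.2, and 32.1 CPM with FGF6 at 4 h. After 8 h, it was at 21.4, 21.9, and 23.3 CPM with vehicle and 35.7, 34.7, and 34.9 CPM with FGF6. With 24 h of treatment, it was at 5.42, 7.68, and 7.85 CPM with vehicle and 2.01, 1.65, and 1.84 CPM with FGF6. Both arms were thus lower at 24 h, and FGF6 was above vehicle at the earlier times and below it at the last. Il1rn rose at 8 h (log2 fold change 0.72 ± 0.08, SE, adjusted p = 1.38e-08), and its 4 h difference of 0.52 missed the rule without Veh replicate 1 (0.49) or replicate 2 (0.47).

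**Figure D3:**
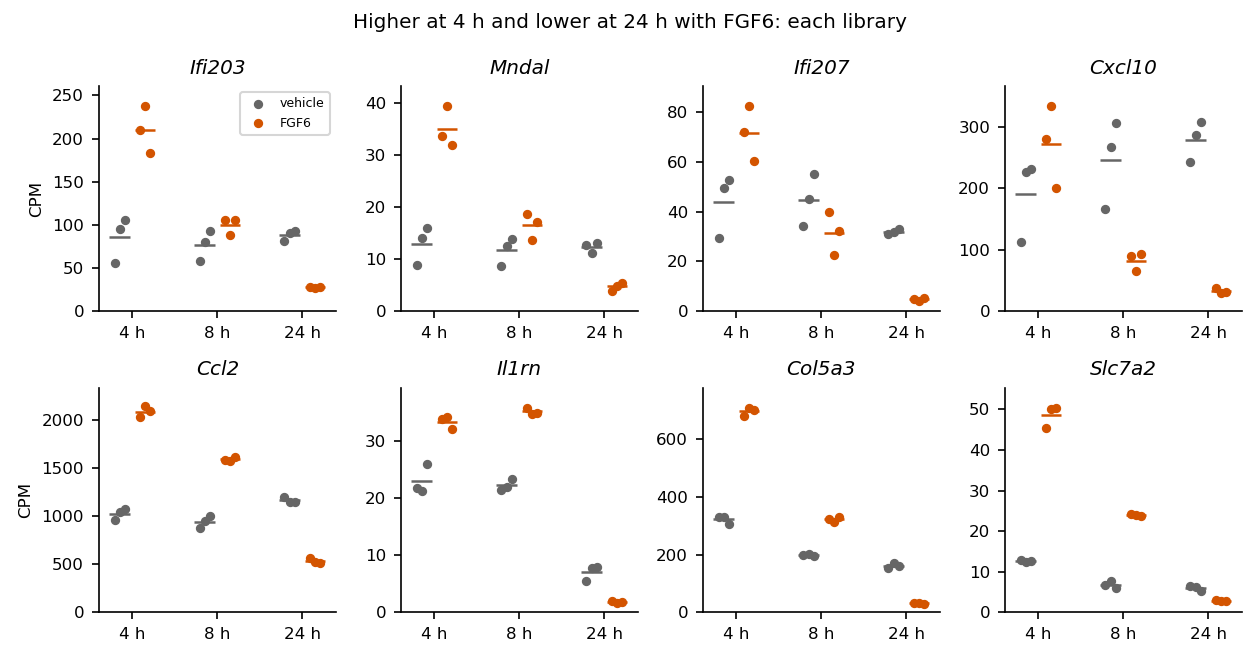
CPM of each library for 8 higher-then-lower genes, with vehicle in gray and FGF6 in orange at 4 h, 8 h, and 24 h, 1 point per library (n = 3) and a line at the mean. In each panel the FGF6 mean is above the vehicle mean at 4 h and below it at 24 h, and at 8 h it is above in Ifi203, Mndal, Ccl2, Il1rn, Col5a3, and Slc7a2 and below in Ifi207 and Cxcl10.

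Of the 44 genes of at least 1 CPM on a list of collagens and basement membrane, 2 were members, both higher then lower. Col5a3 encodes a chain of the fibrillar type V collagen. At 4 h, it was at 330, 331, and 307 CPM with vehicle and 679, 706, and 698 CPM with FGF6. With 8 h of treatment, it was at 198, 201, and 196 CPM with vehicle and 321, 313, and 329 CPM with FGF6. At 24 h, it was at 154, 169, and 159 CPM with vehicle and 31.6, 31.6, and 30.4 CPM with FGF6. Col5a3 was lower at each later time in both arms, and from 4 h to 24 h its mean went from 694 ± 14 to 31.2 ± 0.682 CPM with FGF6 and from 323 ± 13.5 to 161 ± 7.48 CPM with vehicle (SD, n = 3). At 8 h, Col5a3 was higher with FGF6 than with vehicle (log2 fold change 0.76 ± 0.04, SE, adjusted p = 1.4e-15). Col15a1, a basement membrane collagen, also rose at 8 h (0.77 ± 0.07, SE, adjusted p = 9.39e-11), and its differences at 4 h and 24 h were 0.58 and -2.48. On this list, 12 of the 44 were higher then lower by some amount, members included (27.3%, against 6.61% of all genes). At 8 h, 10 of 45 tested rose (22.2%, against 32.4% of all genes tested) and 26 fell (57.8%, against 38.4%).

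Slc7a2 had the largest difference at 8 h among the reversing genes as well as at 4 h. It was at 13, 12.3, and 12.6 CPM with vehicle and 45.5, 50.1, and 50.4 CPM with FGF6 at 4 h. At 8 h, it was at 6.74, 7.7, and 5.94 CPM with vehicle and 24.3, 23.9, and 23.7 CPM with FGF6. After 24 h, it was at 6.41, 6.15, and 5.31 CPM with vehicle and 3.02, 2.88, and 2.78 CPM with FGF6. The 8 h log2 fold change was 1.88 ± 0.08 (SE, adjusted p = 3.79e-17), and the arms were apart at all times.

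Foxs1, a forkhead transcription factor, had 76, 83.1, and 86.6 CPM with vehicle and 197, 198, and 200 CPM with FGF6 at 4 h. With 24 h of treatment, it had 51.1, 46.4, and 45.1 CPM with vehicle and 14.2, 13, and 13.8 CPM with FGF6. Foxs1 rose at 8 h (log2 fold change 0.74 ± 0.05, SE, adjusted p = 5.31e-13). Penk, the precursor of enkephalin peptides, rose at 8 h as well (0.89 ± 0.06, SE, adjusted p = 4.7e-13) and had differences of 1.35 and -0.92 at 4 h and 24 h. Angptl4, a secreted inhibitor of lipoprotein lipase, was at 351 ± 11.6 CPM with FGF6 and 232 ± 7.14 CPM with vehicle at 4 h, and at 69.5 ± 1.21 and 143 ± 13.2 CPM at 24 h (SD, n = 3). Its 8 h log2 fold change was 0.37 ± 0.04 (SE, adjusted p = 1.25e-08).

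Fst, a secreted antagonist of activins, was the higher-then-lower gene on a list of the BMP and TGF-beta pathway, in which 38 genes reached 1 CPM. Its differences were 0.65 at 4 h and -1.70 at 24 h, and it rose at 8 h (log2 fold change 0.30 ± 0.07, SE, adjusted p = 0.00043). Adcyap1r1, a receptor of the neuropeptide PACAP, was further from 0 at 8 h than at 4 h (log2 fold change 1.14 ± 0.08, SE, adjusted p = 4.57e-12). The potassium channel gene Kcnc2 was likewise, with 1.41 ± 0.13 (SE, adjusted p = 4.09e-10). The remaining genes with the largest increases at 8 h were Sprr1a, with 0.99 ± 0.30 (SE, adjusted p = 0.00517), and the annexin gene Anxa8, with 0.94 ± 0.08 (SE, adjusted p = 2.16e-10). Sprr1a was low, at 1.27 ± 0.273 CPM with FGF6 and 0.663 ± 0.149 CPM with vehicle at 8 h (SD, n = 3).

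Other higher-then-lower genes with large differences had different positions at 8 h. The receptor gene Gpr176 and the LIM domain gene Lmcd1 had 8 h log2 fold changes of 0.07 ± 0.07 and 0.05 ± 0.09 (SE, adjusted p = 0.397 and 0.656), and at 24 h their differences were -2.39 and -2.99. B4galt5, a galactosyltransferase gene of lactosylceramide synthesis, had 0.01 ± 0.06 (SE, adjusted p = 0.863). By contrast, Ppfibp2, a liprin beta gene, and Shroom3, which encodes an actin-binding protein of apical constriction, fell at 8 h with log2 fold changes of -0.24 ± 0.09 and -0.40 ± 0.18 (SE, adjusted p = 0.0185 and 0.0463). The call of Ppfibp2 was lost without FGF6 replicate 3 (-0.13, adjusted p = 0.24) or Veh replicate 2 (-0.22, adjusted p = 0.0572) of 8 h, and that of Shroom3 without any of them but Veh replicate 1 (adjusted p from 0.0605 to 0.16). Without FGF6 replicate 3, Lmcd1 was called higher (0.21, adjusted p = 0.0207). Shroom3 shares 3293 exonic bases with a gene on the other strand, and the strand setting of the counting is not given in the sources used here. Among the rest, Pde1b, Phactr1, and Adra1b had differences of 0.95, 0.97, and 0.98 at 4 h and -1.42, -1.29, and -1.10 at 24 h. In Pax5 and Batf2, no FGF6 library at 24 h held more than 3 counts, and no fold is given for them.

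Mitotic genes stood among the lower-then-higher members. Of 66 genes of mitosis and chromosome segregation, all at or above 1 CPM, 4 were members: Bub1 and Ttk, kinases of the spindle checkpoint, Kif18a, a kinesin that acts on chromosome alignment, and Ect2, an exchange factor for RhoA in cytokinesis. Ncapg, a condensin subunit, and Spag5, a spindle protein, were also members but not on the list, and are named after their values were seen. By any amount, 50 of the 66 were lower at 4 h and higher at 24 h, or 75.8%, the same count as under TMM, against 20% of all genes (13.9% under TMM). The median differences of the list were -0.58 at 4 h, -0.47 at 8 h, and 0.31 at 24 h. At 8 h, 58 of the 66 fell (87.9%, against 38.4% of all genes tested), 2 rose (3.03%, against 32.4%), and 6 were not called. The median log2 fold change was -0.42, against -0.05 for all genes tested.

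In sum over the list, vehicle libraries at 4 h held 6158, 5983, and 6059 CPM and FGF6 libraries 4200, 4040, and 4195 CPM. At 8 h, the sums were 8433, 8395, and 8501 CPM with vehicle and 5923, 6160, and 6169 CPM with FGF6. At 24 h, they were 7969, 8039, and 8009 CPM with vehicle and 9658, 9684, and 9532 CPM with FGF6. The arms were apart at each time, and the vehicle sums were themselves higher at 8 h and 24 h than at 4 h. Among the 51 listed genes of DNA replication, none was a member. By any amount, 32 of these were lower then higher, or 62.7% (26, or 51%, under TMM), against 20% and 13.9% of all genes. The median difference of this list at 4 h was -0.14 (-0.04 under TMM), the same as over all genes of at least 1 CPM. At 24 h it was 0.23, against -0.01. The list median thus stood apart from that of all genes at 24 h and not at 4 h. At 8 h, 30 of the 51 rose (58.8%, against 32.4% of all genes tested) and 9 fell (17.6%, against 38.4%).

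Promoter sequences of 4 of these genes are shown because genes of the G2 and M phases are known to share CCAAT boxes, bound by NF-Y, and the cell cycle genes homology region, TTTGAA. Both were searched on both strands and are in capitals (RefSeq, GRCm38.p6, from 180 bases before the start to 20 from it onward, 5′ to 3′ in the direction of the gene).
Ttk, chr9:83834509-83834708, plus strand: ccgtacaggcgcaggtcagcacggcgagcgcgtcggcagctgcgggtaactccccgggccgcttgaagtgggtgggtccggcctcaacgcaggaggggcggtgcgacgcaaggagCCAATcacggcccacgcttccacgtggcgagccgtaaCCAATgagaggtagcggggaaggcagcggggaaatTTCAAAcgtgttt
Ect2, chr3:27153859-27154058, minus strand: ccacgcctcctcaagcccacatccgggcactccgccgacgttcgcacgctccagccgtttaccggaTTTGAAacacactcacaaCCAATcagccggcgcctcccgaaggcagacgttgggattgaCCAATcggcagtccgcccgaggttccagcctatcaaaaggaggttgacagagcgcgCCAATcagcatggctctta
Spag5, chr11:78301411-78301610, plus strand: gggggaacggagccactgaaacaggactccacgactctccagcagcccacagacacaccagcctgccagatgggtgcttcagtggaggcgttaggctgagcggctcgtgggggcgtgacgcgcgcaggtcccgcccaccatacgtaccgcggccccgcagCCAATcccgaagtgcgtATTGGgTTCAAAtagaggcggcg
Bub1, chr2:127831840-127832039, minus strand: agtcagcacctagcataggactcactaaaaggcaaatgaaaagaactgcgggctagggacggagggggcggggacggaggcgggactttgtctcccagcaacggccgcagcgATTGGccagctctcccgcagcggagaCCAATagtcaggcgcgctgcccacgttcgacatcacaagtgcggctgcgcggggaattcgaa
In the full 300-base windows, CCAAT was found in 5 of the 6 mitotic members, all but Kif18a, and TTTGAA in 4, Ttk, Ect2, Spag5, and Ncapg. Over all 27025 genes with a window, CCAAT was found in 41.1% and TTTGAA in 20.2%. Bub1 held CCAAT 42 and 68 bases before its start and no TTTGAA. Both sequences together were found in 56.4% of the 55 genes of the mitosis list that had a window, 16.7% of the 30 lower-then-higher genes, 2.44% of the 41 higher-then-lower genes, and 7.97% of all 27025 genes. Of the 5 lower-then-higher genes that held both, 4 were these mitotic members.

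Bub1 (chr2:127801122-127831865, minus strand) had the largest reversal of the 6. At 4 h, it was at 53.3, 54.7, and 58.2 CPM with vehicle and 33.9, 33.3, and 33.8 CPM with FGF6. After 8 h, it was at 93.3, 90.8, and 96.6 CPM with vehicle and 62.9, 60.7, and 58.4 CPM with FGF6. At 24 h, it was at 81.7, 78.1, and 81 CPM with vehicle and 138, 140, and 135 CPM with FGF6. The FGF6 libraries were below vehicle at both early times and above it at 24 h, without overlap. Bub1 fell at 8 h (log2 fold change -0.56 ± 0.04, SE, adjusted p = 4.55e-12).

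The other 5 were also lower with FGF6 at 4 h and 8 h and higher at 24 h. Ttk was at 43.7, 44.5, and 43.2 CPM with vehicle and 29, 29.6, and 31 CPM with FGF6 at 4 h, and its 24 h libraries were at 52.9, 53.8, and 56.6 CPM with vehicle and 83.1, 77.1, and 78 CPM with FGF6. Ect2 was at 94.8, 86.4, and 89.2 CPM with vehicle and 57.6, 55.5, and 59.3 CPM with FGF6 at 4 h, and its 24 h libraries were at 124, 122, and 127 CPM with vehicle and 183, 172, and 178 CPM with FGF6. Neither gene had overlapping libraries at any time. At 8 h, Ttk fell (log2 fold change -0.31 ± 0.05, SE, adjusted p = 2.12e-06) and so did Ect2 (-0.36 ± 0.04, SE, adjusted p = 4.37e-09). Kif18a, Ncapg, and Spag5 fell with -0.32 ± 0.06, -0.39 ± 0.04, and -0.44 ± 0.04 (SE, adjusted p = 3.5e-05, 3.41e-10, and 7.11e-11). Under TMM, 3 of the 6 no longer met the rule, Ttk, Kif18a, and Spag5, with 4 h differences of -0.45, -0.48, and -0.50 (rounded), just under the threshold in size and with the same sign. Ect2 missed the rule without Veh replicate 2 or FGF6 replicate 1 of 24 h, where its difference was as low as 0.49. Ncapg shares 944 exonic bases with a gene on the opposite strand.

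Growth factor signaling genes gave 2 lower-then-higher members among 32 on a list of FGF and MAP kinase feedback genes. The list as a whole did not follow them, with median differences of 0.61, 0.76, and 0.61 at 4 h, 8 h, and 24 h. By any amount, 9.38% of it was lower then higher, against 20% of all genes. Of 35 tested at 8 h, 22 rose (62.9%, against 32.4% of all genes tested) and 8 fell (22.9%, against 38.4%). Fgf10 encodes a secreted FGF that is expressed by preadipocytes. At 4 h, Fgf10 was at 26.8, 27.7, and 29 CPM with vehicle and 14.5, 13.9, and 13.4 CPM with FGF6. With 8 h of treatment, it was at 33.7, 32.7, and 31.1 CPM with vehicle and 26.8, 24.8, and 25.6 CPM with FGF6. After 24 h, it was at 34, 28.6, and 26.4 CPM with vehicle and 45.4, 42.9, and 39.3 CPM with FGF6. The gap at 24 h was the narrower one: its difference of 0.51 went as low as 0.44 when 1 library was left out. Fgf10 fell at 8 h (log2 fold change -0.27 ± 0.07, SE, adjusted p = 0.000872). Grb14, an adaptor that inhibits the insulin receptor, had differences of -0.79 and 0.71 and fell at 8 h by 0.54 ± 0.08 on the log2 scale (SE, adjusted p = 1.41e-06).

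Id1, an inhibitor of basic helix-loop-helix factors and a target of BMP signaling, was at 159 CPM in each vehicle library and 87.8, 93, and 82.9 CPM with FGF6 at 4 h. At 8 h, it was at 84.1, 75.2, and 74.2 CPM with vehicle and 76.2, 76.8, and 76.4 CPM with FGF6. With 24 h of treatment, it was at 44.3, 36.3, and 35.7 CPM with vehicle and 59.8, 58.2, and 57.2 CPM with FGF6. Both arms were lower at 24 h than at 4 h, vehicle by more, and the arms overlapped at 8 h (log2 fold change 0.04 ± 0.05, SE, adjusted p = 0.555). Gli1, a transcription factor and target of Hedgehog signaling, was the only member among 14 Hedgehog genes, with 0.527 ± 0.152 CPM for FGF6 and 0.959 ± 0.103 CPM for vehicle at 4 h and 2.29 ± 0.238 and 0.902 ± 0.255 CPM at 24 h (SD, n = 3). At 8 h, its log2 fold change was 0.03 ± 0.27 (SE, adjusted p = 0.923). Gli1 missed the rule under TMM, with a 4 h difference of -0.45, and without Veh replicate 1 or FGF6 replicate 1 or 2 of 4 h, where it was as small as -0.44. The Hedgehog list as a whole did not follow Gli1, with median differences of -0.43 at 4 h and -0.24 at 24 h.

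Of 52 genes on a list of ephrins, semaphorins, and cell adhesion, 2 were members, both lower then higher. Efna1, an ephrin ligand, was at 14.2, 11.9, and 12.7 CPM with vehicle and 8.17, 7.6, and 8.34 CPM with FGF6 at 4 h. At 24 h, it was at 10.2, 11.7, and 11.2 CPM with vehicle and 25.5, 27, and 24.2 CPM with FGF6. Efna1 fell at 8 h (log2 fold change -0.50 ± 0.08, SE, adjusted p = 7.16e-06). L1cam, a neural cell adhesion molecule, had differences of -0.77 and 0.82, and its 8 h log2 fold change was -0.09 ± 0.10 (SE, adjusted p = 0.418). Lims2, an adaptor at focal adhesions, was the only member of 25 contractile genes, with differences of -0.57 and 0.55 and an 8 h log2 fold change of -0.02 ± 0.25 (SE, adjusted p = 0.941). The contractile list as a whole did not follow Lims2. Its median differences were -0.55 at 4 h and -1.17 at 24 h, and 18 of the 25 were lower with FGF6 at 24 h. The 24 h difference of Lims2 ranged from 0.33 to 0.84 when 1 library was left out. Lims2 missed the rule without FGF6 replicate 3 of 4 h or Veh replicate 2 of 24 h and under TMM, where its 4 h difference was -0.49.

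Pdk1, a kinase that inhibits pyruvate dehydrogenase, was one of the lower-then-higher genes further out at 8 h. At 4 h, it was at 55.4, 55.7, and 60.4 CPM with vehicle and 37.1, 36.8, and 36.6 CPM with FGF6. After 8 h, it was at 60.8, 65.4, and 62.2 CPM with vehicle and 32.2, 33.4, and 33.3 CPM with FGF6. After 24 h, it was at 73, 77.3, and 73.2 CPM with vehicle and 121, 107, and 113 CPM with FGF6. The arms did not overlap, and Pdk1 fell at 8 h (log2 fold change -0.87 ± 0.05, SE, adjusted p = 5.49e-14). Gm11476, a processed transcript at 0.741 ± 0.194 CPM with FGF6 at 8 h (SD, n = 3), had the lowest log2 fold change in edgeR, -1.89 ± 0.22 (SE, adjusted p = 3.98e-08). On the log2(CPM + 0.5) scale its 8 h difference was -1.43, and that of Cxcl10 was lower, at -1.59. Stard10, a lipid transfer protein, Hoxa7, and Lmo7, a LIM domain protein, fell with -0.75 ± 0.12, -0.72 ± 0.17, and -0.71 ± 0.10 (SE, adjusted p = 4.22e-06, 0.0006, and 4.4e-07). Kcnk10, a potassium channel gene, was the lower-then-higher gene that rose, with 0.69 ± 0.24 (SE, adjusted p = 0.0138), a call lost without FGF6 replicate 1 of 8 h (0.55, adjusted p = 0.0793).

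Atp8b4 had the largest reversal of the lower-then-higher genes. It was at 8.07, 7.37, and 7.04 CPM with vehicle and 3.59, 3.3, and 2.61 CPM with FGF6 at 4 h. With 8 h of treatment, it was at 6.97, 6.31, and 5.62 CPM with vehicle and 4.98, 4.38, and 5.14 CPM with FGF6. With 24 h of treatment, it was at 4.08, 4.39, and 4.66 CPM with vehicle and 15.1, 14.3, and 14.5 CPM with FGF6. All 3 time points were without overlap, and the 8 h log2 fold change was -0.32 ± 0.11 (SE, adjusted p = 0.0119). It was -0.25 without FGF6 replicate 2 (adjusted p = 0.0776) or Veh replicate 1 (adjusted p = 0.0801) of 8 h. Dnmt3l, a cofactor of DNA methyltransferases, had differences of -1.02 and 1.32 and was not called at 8 h (0.23 ± 0.20, SE, adjusted p = 0.32), nor was Sh3bgrl2 (0.02 ± 0.15, SE, adjusted p = 0.89), with differences of -0.83 and 0.93. Tcam1, Pfn2, and Sfxn5 had differences of -0.76, -0.63, and -0.77 at 4 h and 1.49, 0.66, and 0.60 at 24 h.

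**Figure D4:**
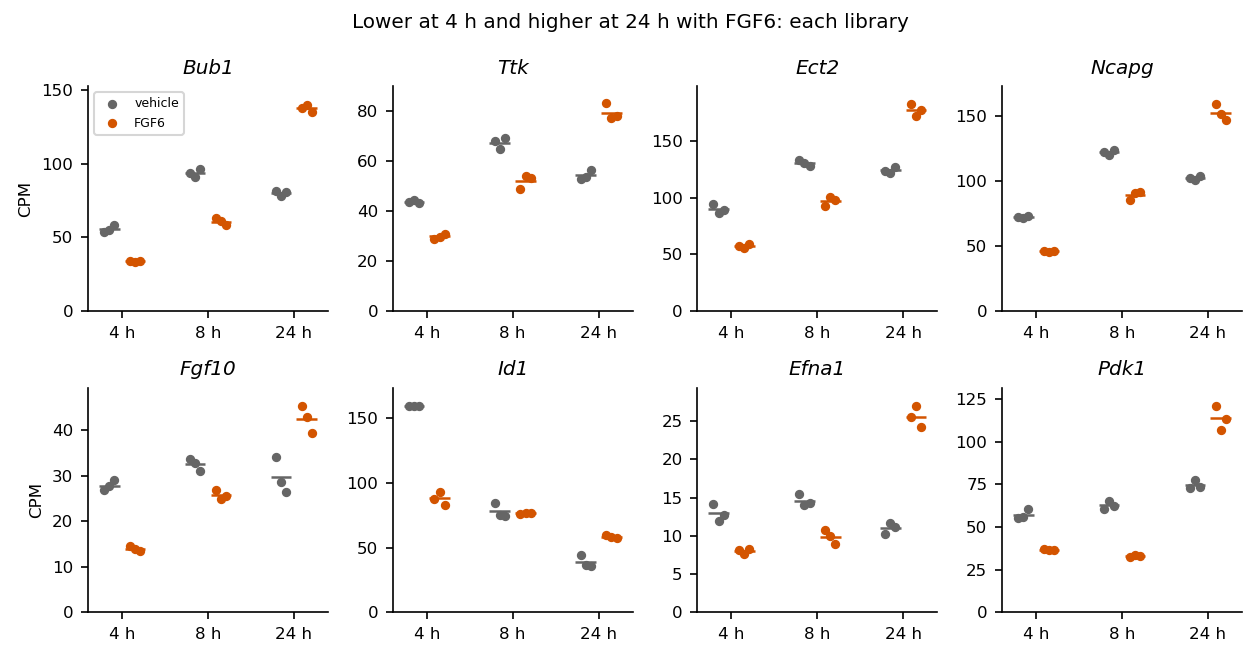
CPM of each library for 8 lower-then-higher genes, with vehicle in gray and FGF6 in orange at 4 h, 8 h, and 24 h, 1 point per library (n = 3) and a line at the mean. The FGF6 libraries lie below the vehicle libraries at 4 h and above them at 24 h in every panel, and in Id1 the arms overlap at 8 h.

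The arms were then followed apart, since a difference can reverse through either. In the 53 higher-then-lower genes, the level with FGF6 was lower at 24 h than at 4 h in all 53, with a median change of -2.39 on the log2(CPM + 0.5) scale. With vehicle, it was lower in 33 and higher in 19, with a median of -0.19. The 4 h FGF6 group had the highest mean of the 6 groups in 46 of these genes and the 24 h FGF6 group the lowest in 52, both in 45. In the 36 lower-then-higher genes, the FGF6 level was higher at 24 h in 33, with a median of 1.53, while vehicle was higher in 19 and lower in 17, with a median of 0.12. In 28 of them, FGF6 at 4 h was the lowest and FGF6 at 24 h the highest group. These directions follow in part from the rule.

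In 7 genes, the vehicle arm changed by more than the FGF6 arm. Among the higher-then-lower genes this was Kcnc2, at 2.89 ± 0.222 CPM with vehicle at 4 h and 7.17 ± 0.417 CPM at 24 h, against 5.87 ± 1.11 and 2.76 ± 0.233 CPM with FGF6 (SD, n = 3). Among the lower-then-higher genes there were 6, Id1, Dnmt3l, Gm11476, Kcnk10, Kcnab3, and Lims2, each lower with vehicle at 24 h than at 4 h. For Id1, the change was -2.02 with vehicle and -0.59 with FGF6.

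**Figure D5:**
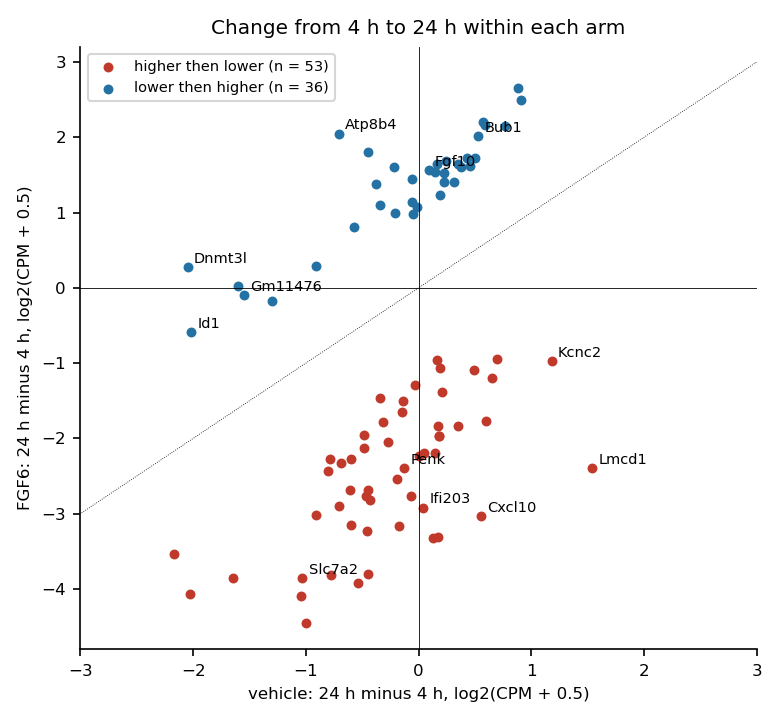
Change from 4 h to 24 h on the log2(CPM + 0.5) scale with vehicle (horizontal) and with FGF6 (vertical) for the 53 higher-then-lower genes (red) and 36 lower-then-higher genes (blue), from the means of 3 libraries. All red points lie below 0 on the vertical axis, 33 of the 36 blue points lie above 0, and the dotted line marks equal change in both arms.

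Further annotation of the members was read as well. Of the 89, 85 were annotated as protein coding (91.9% of all genes of at least 1 CPM were). The highest group mean of a gene ranged from 1.26 to 2092 CPM with a median of 22.6, and was at least 10 CPM in 63; the rule itself asks for 1 CPM in a group. None reached 1 CPM only at 8 h, and all 89 passed the filter on low counts and were tested. No member was found on the lists for immediate early transcription factors, the Notch and WNT pathways, cholesterol synthesis, the circadian clock, adipogenic and brown fat genes, or ATF4 targets. Pairs of members within 1 Mb of each other that had opposite directions were Foxs1 with Id1 and B4galt5 with Gm11476. In 25 members, exonic bases were shared with a gene on the opposite strand and in 5 with a gene on the same strand, and in 13 at least 1% of 50-base windows occurred in another gene, most in Arxes2 (40.12%). Counts of such genes may hold reads of their neighbours or copies.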

How the data were processed

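Total RNA of 18 libraries, 3 for each of vehicle and FGF6 at 4 h, 8 h, and 24 h, was sequenced. The authors aligned the reads to GRCm38 with STAR, counted them per gene with featureCounts of Subread, and deposited raw counts without normalization. Versions, strand setting, and treatment of reads with several positions are not given in the sources used here. Reads shared by near-identical or overlapping genes can therefore be split or lost.

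Groups came from the labels of the samples. CPM values used column totals, between 24327816 and 33471980 counts, and 3 counts, taken as the floor per library, equaled 0.0896 to 0.123 CPM. Floors cover counting error only. With vehicle, FGF6 was compared at 8 h with edgeR 4.0.16 in R 4.3.3 (TMM, filterByExpr over the 6 groups, 15071 genes kept, quasi-likelihood fit to all 18 libraries, Benjamini-Hochberg FDR under 0.05 over all genes). Each SE was derived from the F statistic and the log2 fold change. An exact permutation test of 3 libraries against 3 cannot go below p = 0.1. On simulated counts, the fit recovered 97 of 100 genes changed 2-fold and 100 of 100 changed 4-fold at 8 h, with 8 false calls among 15085 genes. The simulation gave every gene the same small spread and changed only 200 genes at 8 h. In the data, spreads differed between genes and 70.8% of the genes tested were called, so these rates may not hold for them. Alternatives were limma 3.58.1 with voom, DESeq2 1.42.0, library sizes alone, other filters and thresholds, only the 8 h libraries, a replicate block, and leaving out each library.

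The genes named were the 15 of each direction with the largest smaller difference (10 among those of at least 5 CPM), members on the functional lists, the 5 with the largest increase and decrease at 8 h, and the 3 nearest the threshold on each side. The members and lists were chosen with earlier results of these data known. The p200 family and the IL-1 family (3 members of 10 genes of at least 1 CPM) were listed after the values were seen, as were some named genes (Angptl4, Penk, Lmcd1, B4galt5, Hap1, Ncapg, and Ifi205 among them). Gene positions came from GENCODE M21, which held 98.5% of the identifiers, and promoters from RefSeq, which gave a window for 71 of the 89 members. The 50-base windows compared across genes were of GENCODE transcripts.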

Additional observations from a re-analysis of the deposited data

Results flagged for a closer look

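In 85 of the 89 genes, every FGF6 library lay on one side of every vehicle library at 4 h and on the other side at 24 h. The same was found in 10.5% of the genes of at least 1 CPM. The 4 h and 24 h values chose these genes, so the difference between the time points was not tested. Of the 85, the genes with the largest smaller difference were Mndal, Ifi203, and Foxs1 among those higher then lower and Atp8b4, Dnmt3l, and Sh3bgrl2 among those lower then higher.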

How the results depend on the processing

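The number of genes called at 8 h, 59 in the analysis described, ranged from 54 (DESeq2) to 64 (FDR under 0.25) over the other tools, filters, and scalings, and was 5 (3 higher and 2 lower) when a 2-fold change was also required. Leaving out 1 library of 8 h gave 54 to 57 genes, 27 to 31 higher and 23 to 28 lower. The number of reversing genes was 59 with a pseudocount of 2 CPM, 18 of them lower then higher, and 10 with both differences at least 1 (8 higher then lower and 2 lower then higher). TMM gave 23 lower-then-higher genes. Leaving out 1 library of 4 h or 24 h gave 85 to 105 reversing genes, 48 to 63 higher then lower and 34 to 42 lower then higher. The replicate number did not pair the libraries: the correlations of same-numbered deviations across genes at 8 h were -0.0275, -0.00662, and 0.0431, and with the number as a block 60 genes were called, 30 in each direction.

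Of 50 named genes, 35 had the same direction and the same side of the threshold at 8 h in every fit, and 7 changed direction in some fit. None of the 7 was called in the analysis described. With library sizes alone, the log2 fold change was -0.02 for Lmcd1, -0.05 for B4galt5, -0.03 for Id1, -0.03 for Gli1, and -0.04 for Sh3bgrl2. Lims2 was at 0.01 with DESeq2 and at 0.01 with only the 8 h libraries. Without 1 library of 8 h, the log2 fold change ranged from -0.00 to 0.15 for Gpr176, -0.04 to 0.21 for Lmcd1, -0.06 to 0.08 for B4galt5, -0.12 to 0.30 for Gli1, -0.06 to 0.17 for Sh3bgrl2, and -0.15 to 0.16 for Lims2. Ifi205 was called with the block. The cause was not tested in any of these cases. For Pax5 and Batf2, whose FGF6 libraries at 24 h held at most 3 counts each, no fold can be given at this depth.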
